A study of Mus musculus with 4 samples.

Results

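The tricarboxylic acid (TCA) cycle and the steps that feed pyruvate into it were followed through 31 genes, in mouse hearts of WT genotype and of a genotype labelled KO for the RNA acetyltransferase gene Nat10. The genes were taken by symbol from a list of cycle enzymes, the mitochondrial pyruvate carrier, the pyruvate dehydrogenase complex and the kinases and phosphatases that control it. Each symbol stood on exactly 1 of the 55382 Ensembl gene rows of the tables, and 31 of 31 passed the filter on low values, which asks for 1 FPKM or more in 2 or more of the 4 libraries. Hearts were taken on day 15 after birth. WT denotes NAT10-FF mice, whose library names begin with FF, and KO denotes NAT10-CKO mice. The sources used here do not spell out FF or CKO, and name neither a promoter that drives a deletion nor the part of the gene that is removed. There were 2 libraries per group, all under 1 batch label, and nothing states that they came from separate animals, so the p-values rest on the spread between these libraries alone, which may be technical. Heart tissue of about 100 mg was frozen and lysed with cycloheximide at 100 µg/mL, which holds ribosomes on the mRNA, although the labels name cardiomyocytes as the cell type.

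In the heart, pyruvate from glucose or lactate enters the mitochondrion through a carrier made of MPC1 and MPC2 and is turned into acetyl-CoA by the pyruvate dehydrogenase complex. Kinases switch that complex off by phosphorylation and phosphatases switch it on again, which lets the tissue choose between carbohydrate and fatty acids. The cycle then oxidises acetyl-CoA and hands electrons to the respiratory chain, directly so at succinate dehydrogenase, which is also complex II of that chain. Around birth and weaning the mouse heart matures towards a tissue rich in mitochondria.

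The footprint level is the density of ribosome-protected fragments on a gene, in FPKM (fragments per kilobase of gene, scaled to the mapped total). Whether fragments were counted over coding sequence or the whole gene is unknown. Footprint levels of different genes, and ratios, shares and ranks built on them, can thus be set against each other only roughly. The deposited translation efficiency (TE) is the footprint level over an RNA level, and dividing the former by the TE gives that RNA level back, called here the implied RNA level. KO was compared with WT by limma over all tested genes, 15031 for footprints and 12529 for RNA and TE, with Benjamini-Hochberg adjusted p-values, and a gene was called where that value lay under 0.05. Differences are log2 values, KO minus WT, of FPKM + 1 for footprints and of the plain values for RNA and TE. Depth in reads is unknown. Summed FPKM ran from 7042441 to 8734974 per library, of which 48.9% to 57.0% lay in mitochondrial tRNA genes. Nat10 itself read 77.3 and 73.9 FPKM in WT against 40.0 and 52.1 in KO for footprints, a difference of -0.71 (SE 0.30, adjusted p = 0.295), and 7.02 and 8.34 FPKM in WT against 5.62 and 6.69 in KO for RNA (-0.32, adjusted p = 0.424). The KO values of Nat10 were thus the lower ones throughout, without passing the test.

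Most genes of the module had lower footprint levels in KO hearts, by a similar amount, and none passed the test. Of the 31 genes, 0 were called higher or lower by limma for footprints, where the background over all tested genes was 0.126% called lower and 0.253% called higher. At an unadjusted p under 0.05, 17 read lower (background 3.8%) and 1 read higher (background 13.5%). In 27 genes KO lay below WT without overlap, against 12.1% of all tested genes, and in 1 gene, Pdk3, it lay above (background 39.5%). In Cs, Pdk1 and Pdp1 the groups overlapped. The difference was below 0 in 30 of the 31 genes (background 28.9%). Its median over the 31 genes was -0.65, with quartiles of -0.84 and -0.50, while the median over all tested genes was 0.36. Median-ratio scaling, which divides each library by its typical ratio to the others, moved the median of all genes to 0.030 and that of the 31 genes to -1.02.

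**Figure D1:**
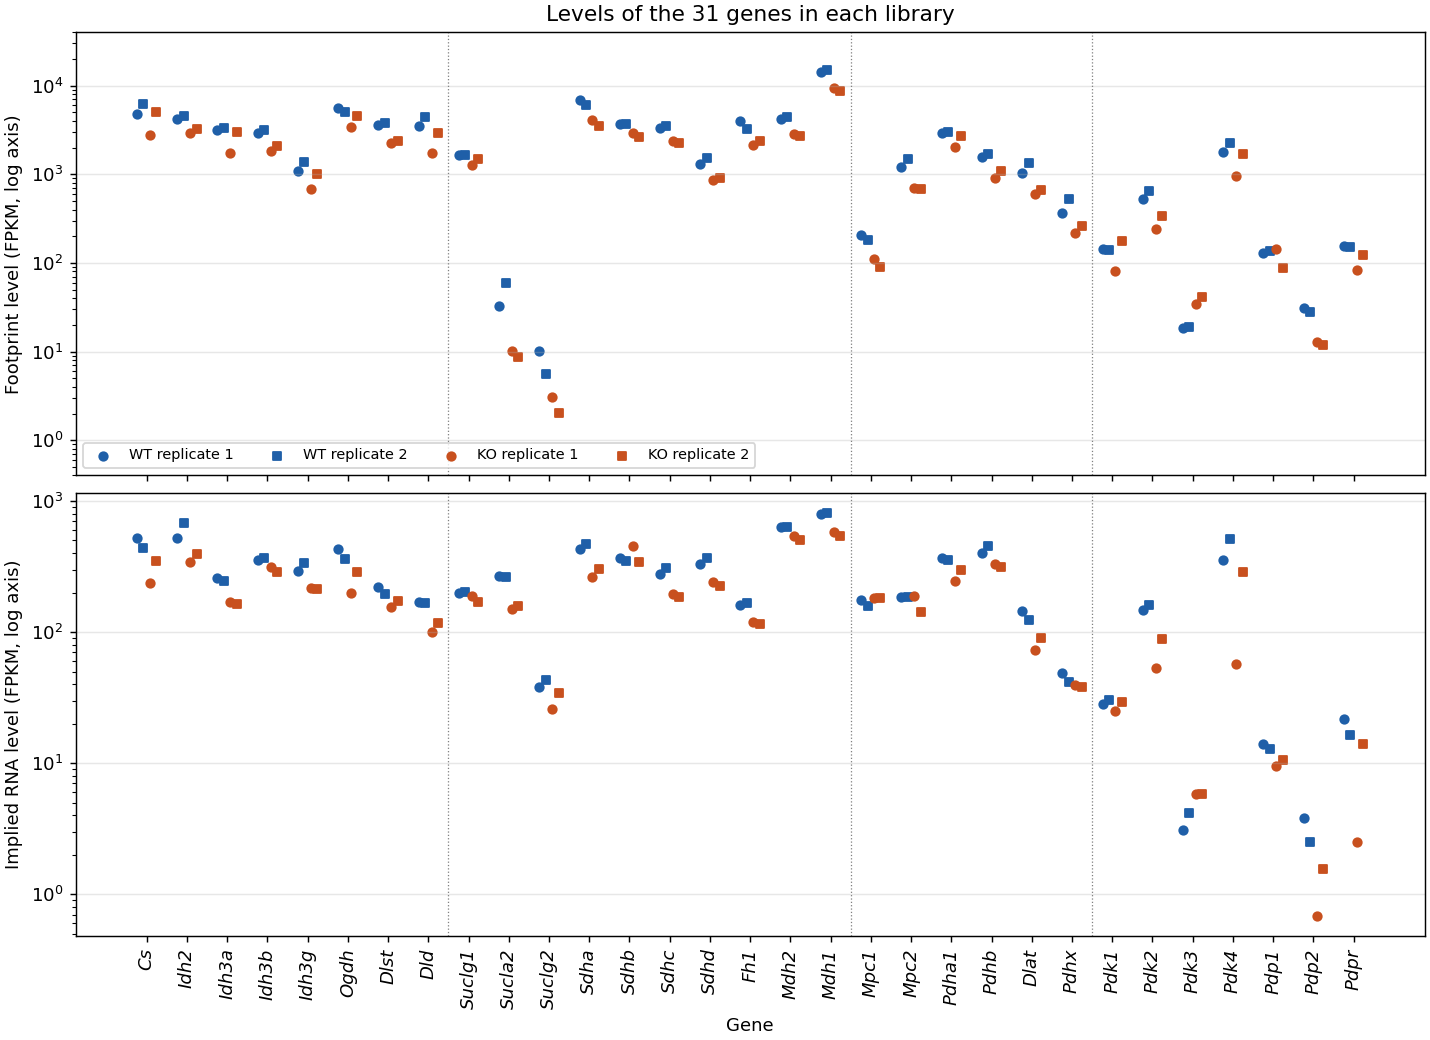
Footprint level (top) and implied RNA level (bottom) of each of the 31 genes in FPKM on a log axis, with WT libraries in blue, KO libraries in orange, replicate 1 as circles and replicate 2 as squares. Dotted lines part the early cycle, the later cycle, the carrier with the pyruvate dehydrogenase complex, and its kinases and phosphatases. Orange points lie below blue ones in most columns, Pdk3 shows the opposite order, and Sucla2 and Suclg2 stand far lower for footprints than for RNA.

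The implied RNA level was lower for most of the same genes. None of the 31 was called (background 1.53% called lower and 4.2% called higher), 15 read lower at an unadjusted p under 0.05 (background 7.17%) and 1 read higher (background 21.1%). KO lay below WT without overlap in 26 genes (background 18.6%) and above it in 2, Mpc1 and Pdk3 (background 44.2%). The difference was below 0 in 28 genes (background 35.4%). The median RNA difference was -0.52 for the 31 genes and 0.22 for all tested genes. For TE 19 genes read lower (background 40.5%) and 12 higher, and after median-ratio scaling 23 read lower (background 50.6%). As deposited, the TE differences had a median of -0.10 against 0.15 for all tested genes. No gene of the table was called for TE by limma (759 of 12529 had an unadjusted p under 0.05, among them 0 of the 31; the background was 1.38% lower and 4.68% higher). KO lay below WT without overlap in TE for 11 genes (background 12%) and above it for 4 (background 24%). Since TE is computed from footprints and RNA, the measures are not independent. Calls of RNA members depended on single libraries: 14 of the 31 were called lower without KO replicate 2 (background 8.86%), 2 without WT replicate 1 (1.77%), 2 without WT replicate 2 (2.15%) and 1 without KO replicate 1 (2.12%). In such fits 1 group has a single library, which is assumed to vary like the other group. With median-ratio scaling, Pdk2 and Sucla2 were called lower for RNA (adjusted p = 0.0421 and 0.0385; background 2.47% called lower and 2.61% called higher).

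**Figure D2:**
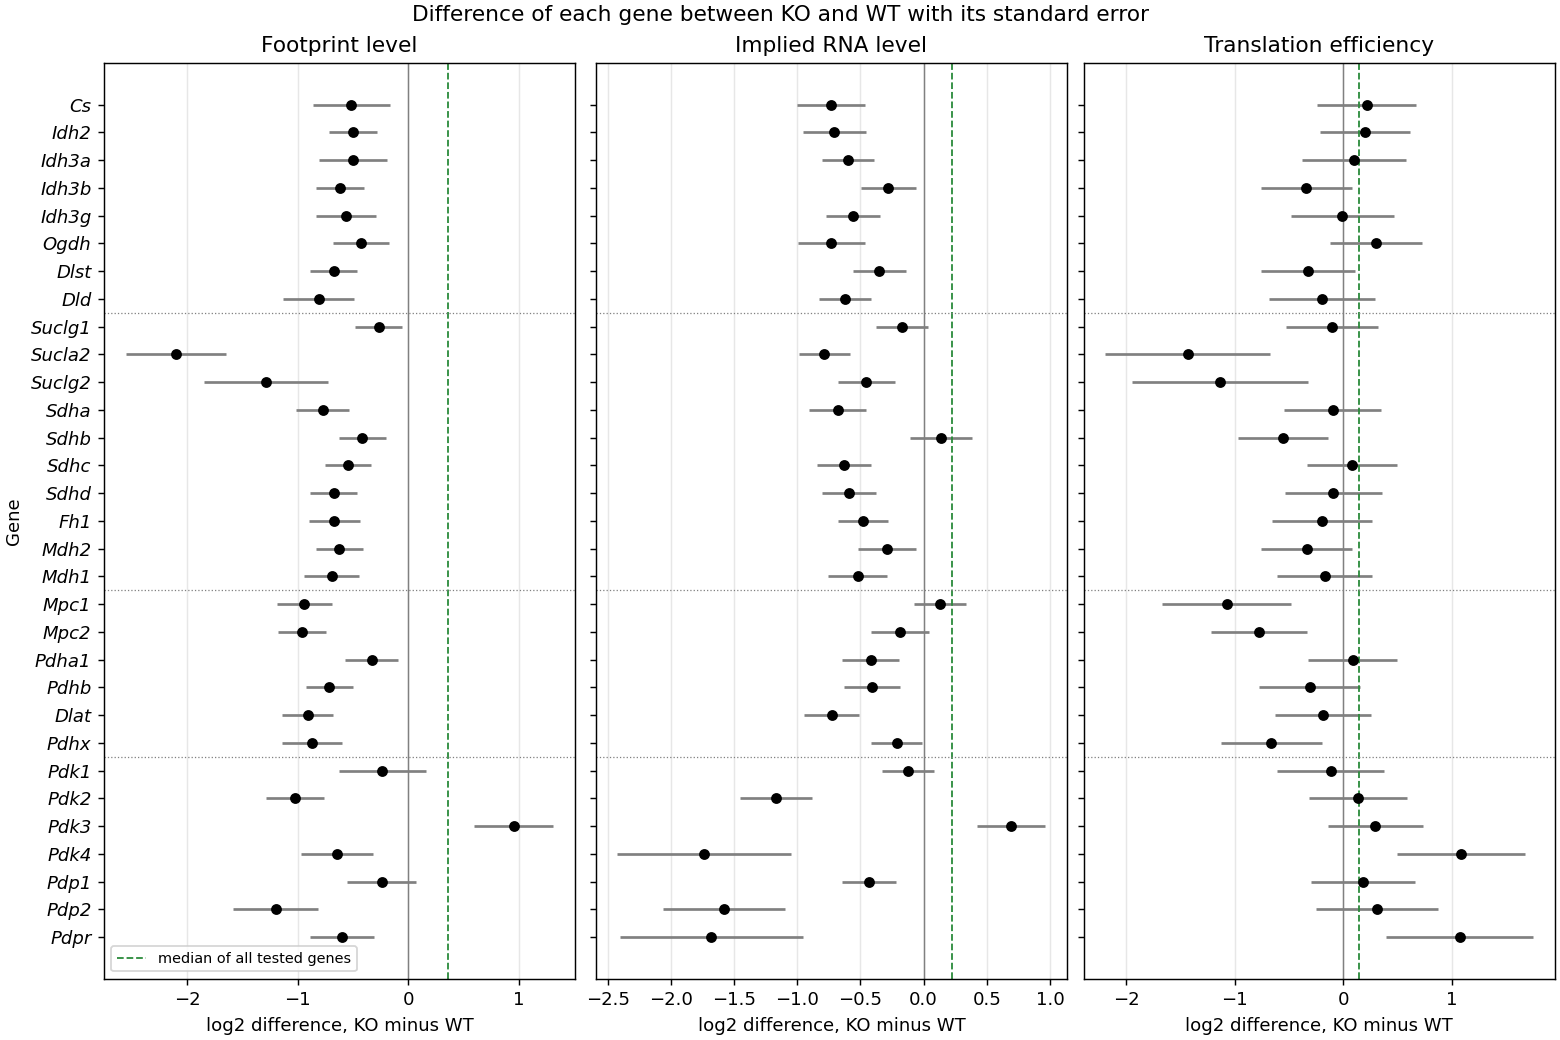
Log2 difference of each gene, KO minus WT, with its standard error from limma, for footprint level, implied RNA level and translation efficiency. The solid grey line marks no difference and the dashed green line the median of all tested genes. Footprint differences lie left of both lines for 30 of 31 genes, RNA differences left of the solid line for 28 of 31, and TE differences on either side.

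Markers of the heart muscle cell read lower along with the module, and fibroblast markers read higher. Of 12 cardiomyocyte markers, among them Myh6, the main myosin of the adult mouse heart, 10 had KO footprints below WT without overlap (background 12.1%). In 1, Myh7, KO footprints lay above WT (background 39.5%). The median difference of the 12 was -0.59 for footprints and -0.51 for RNA, and 1 was called lower for RNA (background 1.53%). Their summed footprints were 281400 and 327140 FPKM in WT against 188490 and 198440 in KO. The summed footprints of the 31 genes were 78410 and 82446 FPKM in WT against 49641 and 56721 in KO. Set against the summed cardiomyocyte markers, they came to 0.279 and 0.252 in WT against 0.263 and 0.286 in KO, so this ratio overlapped between the groups. Its RNA counterpart was 0.230 and 0.213 in WT against 0.187 and 0.251 in KO. In tissue lysates, fewer cells of a type and less RNA per cell cannot be told apart.

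Of 10 fibroblast markers 9 had KO footprints above WT without overlap (median 1.42), against 39.5% of all tested genes. Their summed footprints were 25822 and 21521 FPKM in WT against 54496 and 71671 in KO. For RNA their median was 0.94, and 6 lay above WT without overlap (background 44.2%). For RNA 2 of them read lower (background 35.4%) and 2 were called higher (background 4.2%). The 10 endothelial markers had a footprint median of 0.58, against 0.36 for all tested genes, and of 0.21 after median-ratio scaling. Their footprints summed to 5816 and 6011 FPKM in WT against 7534 and 9773 in KO. Their RNA median was 0.19, against 0.22 for all tested genes, and -0.026 after scaling. The 10 macrophage markers had a footprint median of 0.75, and of 0.39 after scaling. Their footprint sums overlapped, at 629.9 and 1065 FPKM in WT against 1016 and 2058 in KO. Macrophage RNA lay above WT without overlap in 9 of the 10 (background 44.2%), and 2 were called higher (background 4.2%). Its sums were 126.0 and 120.6 FPKM in WT against 293.5 and 231.8 in KO. Smooth muscle and pericyte markers summed to 4230.4 and 4589.5 FPKM in WT against 4309.8 and 3652 in KO for footprints. Of the 8, 1 was called higher for footprints (background 0.253%) and 1 for RNA (background 4.2%), with an RNA median of -0.029. Erythroid footprints overlapped between groups, with sums of 1250.2 and 1028 FPKM in WT against 1497 and 725.8 in KO. Of 6 erythroid markers with RNA values 0 read lower (background 35.4%), with a median of 0.54. Their RNA sums overlapped, at 635 and 959 FPKM in WT against 1327 and 656 in KO. Of 6 fat cell markers 1 passed the filter, their sums were 0 and 1.32 FPKM in WT against 49.3 and 1.36 in KO, and Adipoq was listed at 0 in all but KO replicate 1. The part of cell composition in the differences of the 31 genes was not tested.

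Both carrier genes read lower in footprints. Mpc1 (ENSMUSG00000023861) and Mpc2 (ENSMUSG00000026568) code for the subunits of the carrier. Mpc1 had 204 and 181 FPKM in WT against 109.8 and 90.9 in KO for footprints and Mpc2 had 1204 and 1489 FPKM in WT against 694 and 682.5 in KO. In both genes every KO library lay below every WT library (background 12.1%), with differences of -0.94 (SE 0.25, adjusted p = 0.189) and -0.96 (SE 0.22, adjusted p = 0.16). Their RNA did not follow: Mpc1 RNA was 176 and 157.6 FPKM in WT against 183 and 181 in KO, higher in KO as deposited but -0.090 on the log2 scale after median-ratio scaling, and Mpc2 RNA was 185 and 186 FPKM in WT against 189 and 141 in KO, where the groups overlapped. The TE of Mpc1 was 1.16 and 1.15 in WT against 0.600 and 0.502 in KO, a difference of -1.07 (SE 0.59, adjusted p = 0.831), and that of Mpc2 was 6.51 and 7.995 in WT against 3.67 and 4.83 in KO, a difference of -0.78 (SE 0.44, adjusted p = 0.838). Carrier RNA was about as abundant for one subunit as for the other, at a Mpc1 to Mpc2 ratio of 0.953 and 0.846 in WT, whereas the footprint ratio was 0.170 and 0.122 in WT against 0.158 and 0.133 in KO. Mpc1 stood at percentile 13.2 of all tested genes for WT TE and Mpc2 at 76.0. The carrier thus had the lowest TE differences after succinyl-CoA ligase, and neither passed the test.

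Within the pyruvate dehydrogenase complex, E1 is made of PDHA1 and PDHB, E2 is DLAT, the E3-binding protein is PDHX, and E3 is DLD, shared with the 2-oxoglutarate complex. Dlat had 1044 and 1349 FPKM in WT against 606 and 657 in KO for footprints, a difference of -0.91 (SE 0.23, adjusted p = 0.179). Its RNA read 144.5 and 124 FPKM in WT against 72.9 and 89.4 in KO, a difference of -0.73 (SE 0.22, adjusted p = 0.0941), and its TE overlapped between groups. For Dlat, footprints and RNA thus read lower side by side. Pdhb had 1573 and 1684.5 FPKM in WT against 914 and 1076 in KO (-0.71, SE 0.21, adjusted p = 0.218), with all KO values below all WT values. Pdha1, its X-linked partner at chromosome X from 160122219 to 160138430, had 2941 and 2969 FPKM in WT against 2033.5 and 2721 in KO, and its difference was the smallest of the complex at -0.33 (SE 0.24, adjusted p = 0.497). The Pdha1 to Pdhb ratio of footprints was 1.87 and 1.76 in WT against 2.23 and 2.53 in KO, while that of RNA overlapped (0.922 and 0.787 in WT, 0.751 and 0.952 in KO). Pdhx had 363 and 521 FPKM in WT against 215 and 261 in KO for footprints (-0.87, SE 0.27, adjusted p = 0.226). The RNA of Pdhx differed less, at 48.9 and 42.0 FPKM in WT against 39.8 and 38.4 in KO, and its TE was 7.41 and 12.4 in WT against 5.41 and 6.79 in KO. Pdhx footprints were 0.347 and 0.386 times those of Dlat in WT against 0.356 and 0.397 times in KO, which overlapped between the groups. Their RNA ratio was higher in KO without overlap (0.339 and 0.339 in WT, 0.546 and 0.430 in KO). The Dlat to Pdhb footprint ratio was 0.664 and 0.801 in WT against 0.663 and 0.611 in KO, where replicate 1 was nearly equal in both groups.

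The kinases of the complex did not read alike. Pdk4 (ENSMUSG00000019577), the kinase induced by fasting and fatty acids, was the most abundant, with footprints of 1760.5 and 2244 FPKM in WT against 959 and 1677 in KO, followed by Pdk2, the most widely expressed form, with 528 and 655 FPKM in WT against 244 and 340.0 in KO. Pdk1, a target of the hypoxia response, had 144 and 139 FPKM in WT against 81.8 and 175 in KO, where the groups overlapped. Pdk3 (ENSMUSG00000035232), an isoform known from testis and brain, had the lowest level at 18.5 and 18.9 FPKM in WT against 34.0 and 40.7 in KO. This order, Pdk4 over Pdk2 over Pdk1 over Pdk3, held in each of the 4 libraries for footprints. Pdk4 made up 71.8% and 73.4% of the summed kinase footprints in WT against 72.7% and 75.1% in KO. The share of Pdk3 was 0.754% and 0.619% in WT against 2.58% and 1.82% in KO, and that of Pdk2 was 21.5% and 21.4% in WT against 18.5% and 15.2% in KO.

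**Figure D3:**
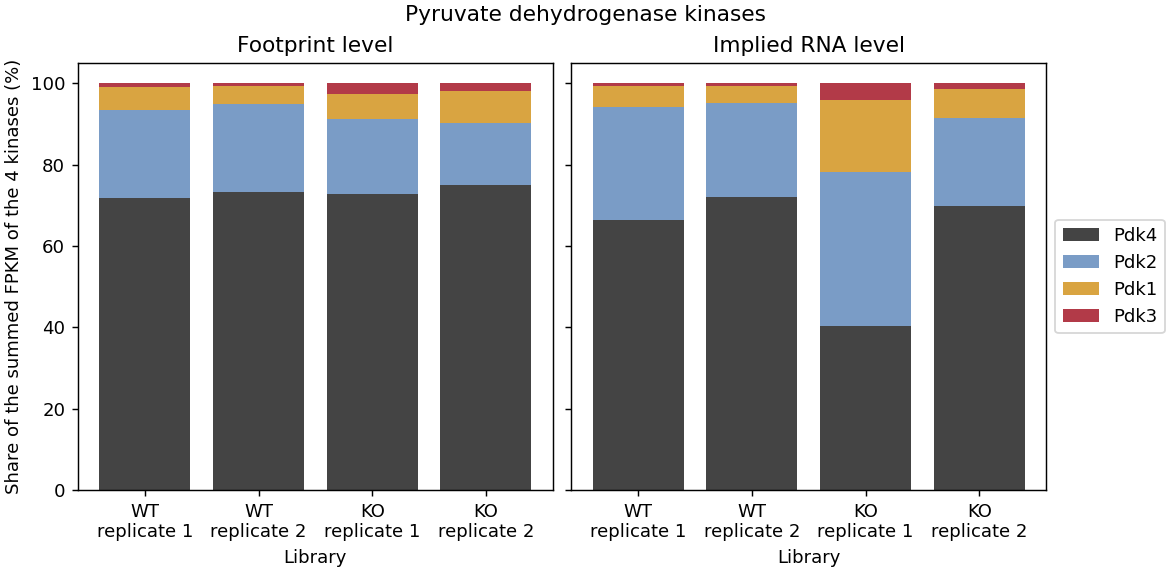
Share of each kinase in the summed FPKM of the 4 pyruvate dehydrogenase kinases, in percent, per library, for footprints and for implied RNA. Pdk4 holds 71.8% to 75.1% of footprints in all 4 libraries, while its RNA share is 40.3% in KO replicate 1 and 66.3% to 72.2% in the other three.

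Pdk2 had the lowest footprint difference of the kinases. It was -1.03 (SE 0.26, adjusted p = 0.183), and its RNA was 149 and 162 FPKM in WT against 53.4 and 89.3 in KO, a difference of -1.17 (SE 0.28, adjusted p = 0.0611), the lowest RNA p-value of the module. Footprints and RNA were lower to a like extent, and the TE overlapped between groups (0.14, SE 0.45, adjusted p = 0.983). Pdk3 went the other way, with a footprint difference of 0.96 (SE 0.36, adjusted p = 0.267) and RNA of 3.12 and 4.17 FPKM in WT against 5.87 and 5.79 in KO, a difference of 0.69 (SE 0.27, adjusted p = 0.154). It was the only one of the 31 genes with higher KO values without overlap in both footprints and RNA. Over all tested genes, KO lay above WT without overlap in 39.5% for footprints and 44.2% for RNA. The differences of Pdk3 stood at percentiles 80.7 and 78.0 of all tested genes, so its direction was common in the data. After median-ratio scaling the footprint difference of Pdk3 was 0.60 and its RNA difference 0.48.

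The KO libraries lay far apart for Pdk4, as they did for the phosphatase subunit Pdpr. Pdk4 RNA read 354 and 509.9 FPKM in WT against 56.8 and 287 in KO, so KO replicate 1 stood much below KO replicate 2, and the difference was -1.73 (SE 0.69, adjusted p = 0.16). Leaving out KO replicate 1 gave -0.57, whereas leaving out KO replicate 2 gave -2.90. The footprint difference was -0.65 (SE 0.33, adjusted p = 0.354) (-0.24 with KO replicate 1 left out, -1.05 with KO replicate 2 left out). The TE of Pdk4 was 4.97 and 4.402 in WT against 16.9 and 5.84 in KO, the highest TE difference of the module at 1.09 (SE 0.59, adjusted p = 0.828), and it was 0.32 without KO replicate 1. Pdpr and Pdp2 also had their lowest RNA reading in KO replicate 1. Across all tested genes the implied RNA of KO replicate 1 correlated with the WT libraries at r = 0.89 and 0.91, that of KO replicate 2 at 0.94 with each, and genes are not independent replicates.

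Among the phosphatases, Pdp1 is the calcium-activated catalytic form, Pdp2 the other catalytic form and Pdpr the regulatory subunit. Pdp1 had 130.4 and 135 FPKM in WT against 143 and 87.4 in KO for footprints, where the groups overlapped (-0.24, SE 0.32, adjusted p = 0.716), and 13.97 and 12.9 FPKM in WT against 9.48 and 10.5 in KO for RNA (-0.43, SE 0.22, adjusted p = 0.239). Pdp2 had 30.8 and 28.2 FPKM in WT against 12.7 and 11.9 in KO for footprints, 2.30-fold lower in KO on the scale of log2(FPKM + 1), a difference of -1.20 (SE 0.39, adjusted p = 0.234). Its RNA was scarce, at 3.84 and 2.50 FPKM in WT against 0.687 and 1.56 in KO, with a difference of -1.58 (SE 0.48, adjusted p = 0.0969) (-0.98 with KO replicate 1 left out, -2.17 with KO replicate 2 left out). Both KO libraries were therefore lower, KO replicate 1 more so. The share of Pdp1 in the footprints of the catalytic forms was 80.9% and 82.7% in WT against 91.9% and 88.0% in KO, and its RNA share was 78.4% and 83.8% in WT against 93.2% and 87.0% in KO. Pdpr had 154 and 151 FPKM in WT against 82.5 and 122 in KO for footprints (-0.60, SE 0.29, adjusted p = 0.343) and 21.7 and 16.3 FPKM in WT against 2.49 and 13.9 in KO for RNA (-1.68, SE 0.72, adjusted p = 0.186). Leaving out KO replicate 1 gave an RNA difference of -0.44, and leaving out KO replicate 2 gave -2.92, and its TE was 7.11 and 9.26 in WT against 33.2 and 8.80 in KO. The summed kinases were 15.2 and 18.7 times the summed Pdp1 and Pdp2 footprints in WT against 8.45 and 22.5 times in KO, with no separation of the groups.

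The 4 lowest RNA differences of the module belonged to these control genes (Pdk4, Pdpr, Pdp2 and Pdk2), and the highest to another of them (Pdk3). Part of that order rested on KO replicate 1. Without it Pdk4 was at -0.57 and Pdpr at -0.44, against -0.74 for Sucla2, while Pdp2 (-0.98) and Pdk2 (-0.80) stayed below Sucla2. Promoters of Pdk4, Pdp2, Pdk2 and Pdk3 are shown, chosen after the values were seen, as the 250 bases before the start of the RefSeq promoter entry (GRCm38.p6), 5′ to 3′ on the gene's strand. The Pdpr promoter is not shown. Capitals mark the E-box, CACGTG.
Pdk4 (chr6:5496279-5496528, minus strand): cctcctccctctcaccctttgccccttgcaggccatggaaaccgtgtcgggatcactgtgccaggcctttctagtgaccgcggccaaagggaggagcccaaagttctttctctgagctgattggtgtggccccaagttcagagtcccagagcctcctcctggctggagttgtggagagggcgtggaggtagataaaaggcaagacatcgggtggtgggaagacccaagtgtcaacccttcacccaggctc
Pdp2 (chr8:104591222-104591471, plus strand): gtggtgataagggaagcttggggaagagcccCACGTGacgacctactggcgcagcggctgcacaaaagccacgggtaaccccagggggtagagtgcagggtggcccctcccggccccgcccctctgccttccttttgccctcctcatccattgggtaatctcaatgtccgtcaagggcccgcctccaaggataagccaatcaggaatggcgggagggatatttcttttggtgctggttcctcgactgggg
Pdk2 (chr11:95041372-95041621, minus strand): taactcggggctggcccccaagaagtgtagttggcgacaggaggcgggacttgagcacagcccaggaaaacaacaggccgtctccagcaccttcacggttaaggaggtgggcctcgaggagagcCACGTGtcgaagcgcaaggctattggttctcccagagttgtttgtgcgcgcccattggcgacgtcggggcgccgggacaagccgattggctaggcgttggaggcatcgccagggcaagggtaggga
Pdk3 (chrX:93832151-93832400, minus strand): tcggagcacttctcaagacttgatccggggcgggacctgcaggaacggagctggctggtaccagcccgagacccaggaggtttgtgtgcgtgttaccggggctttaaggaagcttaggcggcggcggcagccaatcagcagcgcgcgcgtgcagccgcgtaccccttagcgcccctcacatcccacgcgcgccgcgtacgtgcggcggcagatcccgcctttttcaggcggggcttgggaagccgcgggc
Pdk2 has 2 promoter entries in RefSeq, of which the one that holds the E-box is shown. The G and C content of these stretches was 58.8% for Pdk4, 60.8% for Pdp2, 62.4% for Pdk2 and 67.6% for Pdk3.

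Of the 31 genes 28 had a promoter entry. In the same 250 bases, on either strand, CACGTG stood in 4 of the 28 (14.3%), namely Ogdh, Pdk2, Pdp2 and Pdpr, and in 9.69% of 10749 tested genes with an entry. It began 126 bases before the entry's start in Pdk2, 219 in Pdp2 and 172 in Pdpr, whose entry starts 136 bases inside the gene's RefSeq edge. The hypoxia response core ACGTG, which every CACGTG contains, stood in 9 of 28 and in 24.5% of tested genes. The core GCATGCGC of the NRF1 element, the site of a regulator of mitochondrial genes, was found in Ogdh and Sdhb (2 of 28, 7.14%, against 4.76% of tested genes), and the full NRF1 element of 10 letters in 0 of 28 (1.77%). The GABPA element ACCGGAAG was found in Idh3g and Sdhd (2 of 28, against 3.71%). No entry of the 28 held TCAAGGTCA or its core AAGGTCA, the element of the oestrogen-related receptors (0.288% and 3.6% of tested genes), the direct repeat 1 element of PPAR and RXR (0.056%), the YY1 element (0.54%) or TATAAA (8.85%). No match says only that these letters are not in this window.

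The first reactions of the cycle read lower to a moderate degree. Cs (ENSMUSG00000005683), the citrate synthase that joins acetyl-CoA to oxaloacetate, had 4737 and 6167 FPKM in WT against 2806 and 5079.9 in KO for footprints. KO replicate 2 lay above WT replicate 1, so the groups overlapped (-0.52, SE 0.35, adjusted p = 0.468). Leaving out KO replicate 1 gave -0.090 for Cs, and leaving out KO replicate 2 gave -0.95. Its RNA did separate them, at 519 and 440.8 FPKM in WT against 238 and 347 in KO (-0.73, SE 0.27, adjusted p = 0.139). Idh2, the NADP-dependent isocitrate dehydrogenase of mitochondria, had 4229 and 4555 FPKM in WT against 2942 and 3259 in KO (-0.50, SE 0.22, adjusted p = 0.306), all KO values lying below all WT values. Its RNA was 525 and 680.0 FPKM in WT against 341 and 393 in KO (-0.71, SE 0.25, adjusted p = 0.13). The TE of Idh2 was higher in KO without overlap (background 24%), by 0.20 (adjusted p = 0.967), where the median of all tested genes was 0.15. After median-ratio scaling that TE difference was 0.048.

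The NAD-dependent isocitrate dehydrogenase is built from the catalytic IDH3A with IDH3B and IDH3G. Idh3a had 3172 and 3285 FPKM in WT against 1736 and 2998 in KO for footprints, where KO replicate 2 came close to WT (-0.50, SE 0.31, adjusted p = 0.433), and 259 and 245 FPKM in WT against 169.5 and 164 in KO for RNA (-0.60, SE 0.20, adjusted p = 0.122). Idh3b had 2904 and 3137 FPKM in WT against 1840.3 and 2104 in KO (-0.62, SE 0.21, adjusted p = 0.248), and Idh3g had 1091 and 1361 FPKM in WT against 678 and 1002 in KO (-0.56, SE 0.27, adjusted p = 0.345). In each of these genes KO footprints lay below WT without overlap (background 12.1%). The Idh3a footprint difference was -0.11 with KO replicate 1 left out and -0.89 with KO replicate 2 left out. For RNA, Idh3b differed less than its partners: the Idh3a to Idh3b ratio was 0.735 and 0.662 in WT against 0.545 and 0.573 in KO, and the Idh3g to Idh3b ratio was 0.835 and 0.905 in WT against 0.694 and 0.740 in KO. The footprint ratios overlapped between groups for both pairs, at 1.09 and 1.05 in WT against 0.943 and 1.42 in KO for Idh3a to Idh3b. For both pairs the KO footprint ratios lay on either side of the WT values. Whether footprints shared the difference in proportion seen in RNA thus cannot be told from these libraries.

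The 2-oxoglutarate dehydrogenase complex consists of OGDH (E1), DLST (E2) and DLD (E3). Ogdh had 5662 and 4994 FPKM in WT against 3448 and 4536 in KO for footprints (-0.43, SE 0.25, adjusted p = 0.413) and 433 and 361 FPKM in WT against 199.5 and 285 in KO for RNA (-0.73, SE 0.26, adjusted p = 0.134). Its RNA was lower by more than its footprints, and its TE was 13.1 and 13.8 in WT against 17.3 and 15.9 in KO. That TE was higher in both KO libraries (0.30, SE 0.43, adjusted p = 0.939, background 24%), and by 0.15 after median-ratio scaling. Dlst had the opposite balance, with 3582 and 3818.5 FPKM in WT against 2282 and 2348 in KO for footprints (-0.68, SE 0.21, adjusted p = 0.226), 220.2 and 196 FPKM in WT against 154.5 and 171 in KO for RNA (-0.35, SE 0.21, adjusted p = 0.306) and a TE of 16.3 and 19.5 in WT against 14.8 and 13.7 in KO. The Dlst to Ogdh ratio of RNA was 0.509 and 0.541 in WT against 0.775 and 0.601 in KO, while that of footprints overlapped. Dld had 3527 and 4429 FPKM in WT against 1724.5 and 2943 in KO for footprints, with KO replicate 1 far below the rest (-0.81, SE 0.32, adjusted p = 0.28), and 169 and 165.5 FPKM in WT against 101 and 118 in KO for RNA (-0.62, SE 0.21, adjusted p = 0.117). The Dld footprint difference was -0.43 with KO replicate 1 left out and -1.20 with KO replicate 2 left out. Dld and Fh1 had the highest WT TE of the module, at 20.8 and 26.8 for Dld and 25.1 and 19.5 for Fh1.

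Succinyl-CoA ligase stood apart from the other enzymes. It pairs the common subunit SUCLG1 with SUCLA2 (ATP-forming) or SUCLG2 (GTP-forming). Suclg1 (ENSMUSG00000052738) had 1667 and 1667 FPKM in WT against 1275 and 1505 in KO for footprints and 198 and 203 FPKM in WT against 189 and 169 in KO for RNA, among the smallest differences of the module (-0.27, SE 0.21, adjusted p = 0.533 for footprints). Sucla2 (ENSMUSG00000022110, chromosome 14 from 73552786 to 73596144) had more RNA than Suclg1 in WT, 268 and 262 FPKM in WT against 149 and 159 in KO, but footprints of only 32.6 and 58.8 FPKM in WT against 10.2 and 8.66 in KO. The TE of Sucla2 was 0.121 and 0.224 in WT against 0.0684 and 0.0545 in KO, and the WT TE stood at percentile 1.34 of all tested genes. Suclg2 (ENSMUSG00000061838) had 37.9 and 43.2 FPKM in WT against 25.7 and 34.0 in KO for RNA and 10.1 and 5.59 FPKM in WT against 3.07 and 2.04 in KO for footprints, with a WT TE at percentile 1.62. Footprints of Sucla2 were 0.0195 and 0.0353 times those of Suclg1 in WT against 0.0080 and 0.0058 times in KO, whereas its RNA was 1.36 and 1.29 times that of Suclg1 in WT against 0.792 and 0.939 times in KO.

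**Figure D4:**
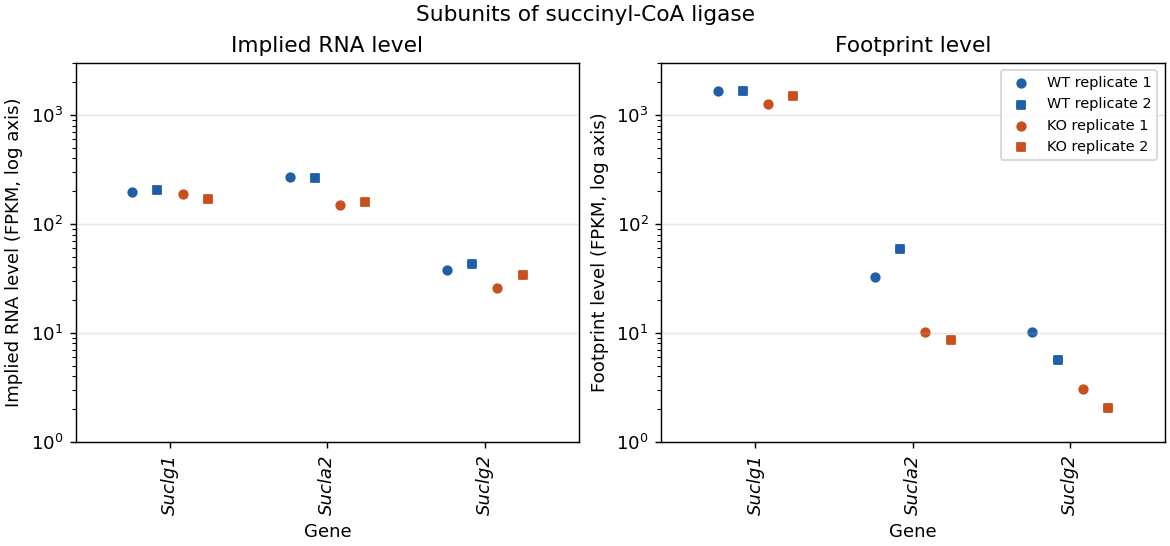
Implied RNA level (left) and footprint level (right) of the subunits of succinyl-CoA ligase in FPKM on log axes, for 2 WT libraries (blue) and 2 KO libraries (orange). RNA of Suclg1 and Sucla2 is of one order, while footprints of Sucla2 and Suclg2 lie far below those of Suclg1 in all 4 libraries and lower still in KO.

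Sucla2 had the lowest footprint difference of the 31 genes. Its mean level in FPKM was 45.7 ± 18.6 in WT against 9.44 ± 1.11 in KO (SD, n = 2), 4.30-fold lower on the log2(FPKM + 1) scale, a difference of -2.11 (SE 0.45, adjusted p = 0.154). The RNA difference was -0.78 (SE 0.20, adjusted p = 0.0707) and the TE difference -1.43 (SE 0.76, adjusted p = 0.828), with all KO values below all WT values in each measure. Without WT replicate 1 the footprint difference was -2.52 and without WT replicate 2 it was -1.69. Suclg2 followed with -1.28 (SE 0.56, adjusted p = 0.309) for footprints, -0.45 (SE 0.23, adjusted p = 0.24) for RNA and -1.14 (SE 0.81, adjusted p = 0.868) for TE, again without overlap. The footprint levels of Suclg2 and the KO levels of Sucla2 were the lowest of the module, and the number of fragments behind them is unknown. The sources used here do not say how reads shared with related sequences were treated, nor whether footprints were counted over coding sequence, so these TE values are uncertain.

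Succinate dehydrogenase is the one enzyme of the cycle that sits in the inner membrane. SDHA binds flavin, SDHB carries the iron-sulfur clusters, and SDHC and SDHD anchor the complex. Sdha had 6952.5 and 6046 FPKM in WT against 4138.5 and 3463 in KO for footprints (-0.78, SE 0.24, adjusted p = 0.223) and Sdhb had 3689.5 and 3656 FPKM in WT against 2891 and 2618 in KO (-0.42, SE 0.21, adjusted p = 0.361). Sdhc had 3292 and 3466.5 FPKM in WT against 2342.5 and 2278.5 in KO (-0.55, SE 0.21, adjusted p = 0.271), and Sdhd, at chromosome 9 from 50596340 to 50603849, had 1313 and 1524 FPKM in WT against 871 and 898 in KO (-0.68, SE 0.21, adjusted p = 0.225). For footprints KO lay below WT without overlap in all 4 subunits (background 12.1%, and 18.6% for RNA). RNA did so for Sdha at 433 and 466 FPKM in WT against 261 and 301 in KO (-0.68, SE 0.22, adjusted p = 0.113), for Sdhc (-0.63, SE 0.21, adjusted p = 0.117) and for Sdhd (-0.59, SE 0.21, adjusted p = 0.136). Sdhb differed, with RNA of 370.2 and 345.5 FPKM in WT against 453 and 341.5 in KO, where the groups overlapped (0.14, SE 0.24, adjusted p = 0.738), and its RNA difference was -0.080 after median-ratio scaling. The TE of Sdhb was 9.97 and 10.6 in WT against 6.38 and 7.66 in KO, lower in both KO libraries (-0.55, SE 0.42, adjusted p = 0.87). Ratios to Sdhb were lower in KO without overlap for the other 3 subunits, in RNA and in footprints: Sdha to Sdhb RNA was 1.17 and 1.35 in WT against 0.575 and 0.882 in KO, and the footprint ratio was 1.88 and 1.65 in WT against 1.43 and 1.32 in KO.

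Of the last enzymes, Fh1, fumarase, had 4016 and 3249.7 FPKM in WT against 2152 and 2391 in KO for footprints (-0.67, SE 0.23, adjusted p = 0.245) and 160.2 and 167 FPKM in WT against 118 and 116 in KO for RNA (-0.48, SE 0.20, adjusted p = 0.171). Mdh2, the malate dehydrogenase of the matrix, had 4198 and 4391 FPKM in WT against 2862 and 2711 in KO (-0.62, SE 0.21, adjusted p = 0.244), with RNA of 635 and 638 FPKM in WT against 543 and 500.4 in KO (-0.29, SE 0.23, adjusted p = 0.439). Mdh1 (ENSMUSG00000020321), its cytosolic counterpart in the malate-aspartate shuttle, had the highest footprint level of the 31 genes, 14241 and 15069 FPKM in WT against 9509 and 8633 in KO, and stood at percentile 99.8 of all tested genes in WT. Its difference was -0.69 (SE 0.25, adjusted p = 0.258) for footprints and -0.52 (SE 0.23, adjusted p = 0.2) for RNA. All KO values of these 3 enzymes lay below all WT values in both measures (background 12.1% for footprints and 18.6% for RNA). The Mdh1 to Mdh2 ratio was 3.39 and 3.43 in WT against 3.32 and 3.19 in KO for footprints.

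Compared with related lists, the module's lower footprints came with lower RNA, as did those of fatty acid oxidation, while respiratory complex I had lower footprints with an RNA median near 0. Of 28 fatty acid oxidation genes with RNA values, 26 read lower in KO (background 35.4%), with a median RNA difference of -0.89 and a median TE difference of -0.090. Of 36 complex I subunits, 15 read lower for RNA (background 35.4%), with a median of 0.088. For TE 35 of them read lower (background 40.5%), with a median of -0.55. The 31 genes had -0.52 for RNA and -0.10 for TE, and all tested genes had 0.22 and 0.15. For footprints the medians were -0.91 for fatty acid oxidation, -0.48 for complex I, -0.65 for the 31 genes and 0.36 for all tested genes. After median-ratio scaling the RNA medians were -0.74 for the 31 genes, -1.11 for fatty acid oxidation and -0.13 for complex I, whose sign thus turned. Without scaling, 1 of 29 fatty acid oxidation genes was called lower for footprints (background 0.126%) and 3 of 28 for RNA (background 1.53%). Of the complex I list and of the 31 genes, 0 were called in either measure. The difference between lists was not tested. Mpc1, Mpc2 and Sdhb were the members with the pattern of complex I, RNA overlapping or higher in KO and TE lower without overlap.

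**Figure D5:**
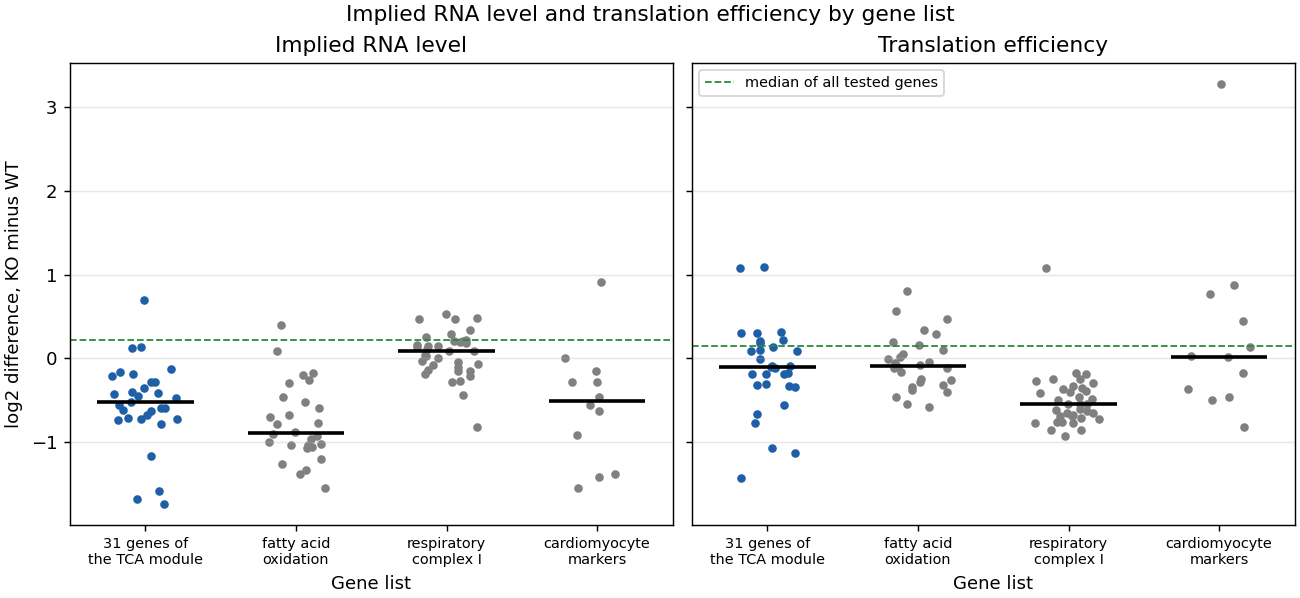
Log2 difference, KO minus WT, of implied RNA level (left) and translation efficiency (right) for the 31 genes (blue) and for genes of fatty acid oxidation, respiratory complex I and cardiomyocyte markers (grey). Each point is a gene, black bars are medians and the dashed green line is the median of all tested genes. The RNA median is -0.52 for the 31 genes, -0.89 for fatty acid oxidation and 0.088 for complex I.

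The genes around the cycle were read from 7 further lists (67 symbols), covering other cycle and NADP enzymes, anaplerosis, lipoylation and iron-sulfur supply, succinate dehydrogenase assembly, lactate and acetate supply, carriers and transcription regulators. For footprints 1 of 67 tested rows was called lower (background 0.126%) and 0 higher (0.253%), and for RNA 4 of 66 were called lower (background 1.53%) and 2 higher (4.2%). The footprint call was Nnt, the mitochondrial transhydrogenase, on ENSMUSG00000025453 (adjusted p = 0.0468), a symbol that stands on 2 Ensembl genes. How reads were divided between them is unknown, so the call is uncertain. That row read 21.9 and 50.5 FPKM in WT against 0.0108 and 0.0211 in KO and had the lowest TE difference of these lists, -10.04 (SE 0.76, adjusted p = 0.0686). The other row, ENSMUSG00000116207, read 1043.5 and 1053 FPKM in WT against 781 and 1028 in KO (-0.23, adjusted p = 0.631), with a TE difference of 0.21. It held nearly all Nnt footprints. Without any 1 library the first row differed by -4.49 to -5.66, in fits that called 0 genes for footprints.

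The genes called lower in RNA were Gpt2, Gpt, Acss1 and Slc25a13. Gpt2, the mitochondrial alanine transaminase that exchanges alanine for pyruvate, fell by 1.89 on the log2 scale, from 11.3 and 10.3 FPKM in WT to 2.36 and 3.59 in KO (adjusted p = 0.0286). Its cytosolic form Gpt fell too, at 10.5 and 8.43 FPKM in WT against 3.11 and 3.10 in KO (-1.60, SE 0.25, adjusted p = 0.0298). Acss1, the mitochondrial acetyl-CoA synthetase, fell at 76.1 and 63.6 FPKM in WT against 13.5 and 30.6 in KO (-1.78, SE 0.38, adjusted p = 0.0493), and its footprints read 585 and 839 FPKM in WT against 209 and 306 in KO without passing (-1.47, SE 0.30, adjusted p = 0.15). Gpt was not called without WT replicate 1 (adjusted p = 0.0509). Slc25a13, an aspartate-glutamate carrier of the malate-aspartate shuttle, fell at 35.2 and 37.0 FPKM in WT against 14.5 and 18.1 in KO (-1.15, SE 0.21, adjusted p = 0.0394), and was not called without WT replicate 1 or 2 (adjusted p = 0.0977 and 0.097). Slc25a42, a carrier of coenzyme A, read 36.7 and 36.4 FPKM in WT against 6.94 and 17.2 in KO but missed the threshold (-1.74, SE 0.41, adjusted p = 0.0582).

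Other genes of these lists read higher. KO lay above WT without overlap in 21 of 66 rows for RNA (background 44.2%) and in 10 of 67 for footprints (background 39.5%). It lay below WT without overlap in 29 rows for RNA (background 18.6%) and in 29 for footprints (background 12.1%). Slc16a3, the lactate exporter MCT4, rose in RNA from 1.77 and 1.09 FPKM in WT to 18.6 and 6.88 in KO (3.02, SE 0.50, adjusted p = 0.0321), and its footprints read 16.8 and 10.1 FPKM in WT against 44.2 and 189 in KO (2.72, SE 0.71, adjusted p = 0.185). Me2, the mitochondrial malic enzyme, rose in RNA from 2.67 and 2.12 FPKM in WT to 5.92 and 5.66 in KO (1.28, SE 0.27, adjusted p = 0.0485), and was not called without WT replicate 1, WT replicate 2 or KO replicate 1 (adjusted p = 0.0509, 0.142 and 0.071). Pcx, pyruvate carboxylase, which makes oxaloacetate from pyruvate, read 1.99 and 0.824 FPKM in WT against 5.82 and 3.84 in KO for RNA, short of the threshold (1.89, SE 0.48, adjusted p = 0.0672). Myc, a growth regulator, read 11.7 and 5.42 FPKM in WT against 60.6 and 64.5 in KO for footprints, also short of it (2.81, SE 0.46, adjusted p = 0.107). Its RNA had an adjusted p of 0.0637. Of the regulators of mitochondrial genes, Ppargc1a, a coactivator, read 28.1 and 29.9 FPKM in WT against 6.14 and 15.0 in KO for RNA with a TE difference of 1.07 (SE 0.48, adjusted p = 0.806). Ppara, a fatty acid receptor that acts on Pdk4, read 8.47 and 5.87 FPKM in WT against 1.55 and 5.85 in KO for RNA. The TE difference of Ppara was 0.96 (SE 0.71, adjusted p = 0.869). It rested on KO replicate 1, at 0.043 with that library left out and 1.88 with KO replicate 2 left out. Fdx2 and Bola3, of iron-sulfur cluster supply, had the lowest TE differences after Nnt, at -2.34 and -1.34 (adjusted p = 0.806 for both).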

How the data were processed

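Ribosome-protected fragments of mouse heart were sequenced in 2 WT and 2 KO libraries. The submitters' processing notes name Cufflinks 2.2.1 and HTSeq 0.13.5, STAR 2.7.4a and Bowtie 1.3.1, FastQC 0.11.9, cutadapt 3.7 and the build GRCm38 (mm10). The sources used here do not give their order, settings or roles in these files. The authors deposited FPKM values and a translation efficiency, a ratio, per Ensembl gene. A quotient of FPKM over TE had at most 6 significant digits in 59296 of 59296 cases (relative tolerance 1e-10) and was used as the implied RNA level. How that RNA was measured is unknown here. A TE of 0 beside a footprint level above 0 (1516 to 1987 genes per library) was taken as missing.

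Genes that reached 1 FPKM in 2 or more libraries were tested with limma 3.58.1 (lmFit, eBayes with trend) in R 4.3.3, two-sided, on log2(FPKM + 1), log2 RNA and log2 TE, without covariates. The pseudocount understates changes of low genes. The script was tested on simulated data. An exact permutation test of 2 against 2 libraries cannot go below p = 0.333 and was not used. Members and lists were chosen with earlier results of these data known. All 31 members were named, and from the neighbouring lists each called gene and the 3 lowest and 3 highest differences per measure. A gene that this rule names is not reported here. Alternatives were another pseudocount, no filter, median-ratio scaling, leaving out small RNA genes and predicted models, no trend, a replicate block and leaving out each library. Promoters and gene positions come from RefSeq (GRCm38.p6).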

Additional observations from a re-analysis of the deposited data

How the results depend on the processing

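For footprints, 57 genes were called over all genes, and 34 with a pseudocount of 0.1, 8 without the filter, 219 without small RNA genes and predicted models, 36 without the trend and 0 with any 1 library left out. For RNA, 718 genes were called, 67 without the trend and 704 to 3742 with a library left out, and for TE 0 were called, 1 without small RNA genes and predicted models, 1 without the trend and 0 to 33 with a library left out. No member was called for footprints or TE under any alternative. For RNA, 2 members were called with median-ratio scaling and 1 to 14 with a library left out. The members' median difference kept its sign throughout: with median-ratio scaling it was -1.02 for footprints, -0.74 for RNA and -0.26 for TE, and with a library left out it ran from -0.78 to -0.59, from -0.55 to -0.46 and from -0.27 to -0.051.

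The labels number the replicates 1 and 2 in both groups without stating a pairing. Same-numbered libraries did not deviate together (r = -0.056 for footprints, -0.22 for RNA and -0.018 for TE). With the replicate number as a block, 143 genes were called for footprints, 1429 for RNA and 178 for TE, and 4 members for RNA (Pdk2, Pdk4, Pdp2 and Pdpr). The block also called Slc25a42, Pcx and Myc for RNA (adjusted p = 0.00264, 0.00372 and 0.00246) and Nnt for TE (adjusted p = 9.99e-16). That Nnt value rests on KO footprints of 0.0108 and 0.0211 FPKM. A block leaves hardly any spread within a gene to estimate, so these p-values lean on the spread borrowed from other genes. As no pairing is stated, the calls made with the block are uncertain.

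Of 930 member values under the alternatives, 23 changed sign, all of them short of the threshold. With median-ratio scaling these were -0.080 for Sdhb RNA, -0.090 for Mpc1 RNA, and for TE -0.067 for Pdha1, -0.059 for Idh3a, -0.018 for Pdk2 and -0.074 for Sdhc. The TE of Pdp2 was -0.22 with 1 added to both levels. With a library left out, footprint differences ran from -0.78 to 0.31 for Pdk1 and from -0.60 to 0.11 for Pdp1. RNA differences ran from -0.066 to 0.34 for Sdhb and from -0.39 to 0.025 for Mpc2. The TE differences ran from -0.091 to 0.52 for Cs, from -0.33 to 0.14 for Sdha, from -0.48 to 0.11 for Dlat, from -0.30 to 0.29 for Idh3g, from -0.55 to 0.32 for Pdk1, from -0.46 to 0.077 for Dld, from -0.33 to 0.95 for Pdp2, from -0.25 to 0.62 for Pdp1, from -0.30 to 0.098 for Suclg1 and from -0.32 to 0.52 for Idh3a. The causes were not tested. Depth in reads is unknown, which limits the low levels of Suclg2, Sucla2, Pdp2 and Pdk3.

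Alternatives for the neighbouring genes were added after seeing the data. Without the trend, none of the 6 RNA calls or the Nnt footprint call was kept (adjusted p = 0.0528 to 0.0969). With median-ratio scaling Me2 was not called (adjusted p = 0.0736) and Slc25a42 was (adjusted p = 0.0475). Without small RNA genes and predicted models Myc and Acss1 were called for footprints (adjusted p = 0.0252 and 0.0404). The TE of Nnt was called in that setting (adjusted p = 0.0317) and without the trend (0.00811). It was not called with 1 added to both levels (-4.04, adjusted p = 0.246), without the filter (0.193) or with median-ratio scaling (0.198). With a library left out, the TE difference of Nnt ran from -10.26 to -9.83. Its footprints were not called with the other pseudocount (adjusted p = 0.073) or without the filter (0.216). RNA was called without each library in turn for Slc25a42 (adjusted p = 0.00218 to 0.0251), without WT replicate 1 or KO replicate 2 for Pcx (0.000153 and 0.0292), and without any 1 library other than KO replicate 1 for Myc (3.25e-07 to 0.0155). Acss1 RNA was at the threshold without the filter (adjusted p = 0.05). With a library left out, 1 group has a single library that is assumed to vary like the other group.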
